A study of Mus musculus with 12 samples.

Results

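The Ifitm and Ly6 families hold surface protein genes linked to interferon, and 8 of them were followed in regulatory T cells (Treg) with and without an intact Foxp3 gene: Ifitm1, Ifitm2, Ifitm3 and Ifitm10, and Ly6a, Ly6c1, Ly6c2 and Ly6e. All 8 are among the 55011 gene symbols of the deposited count table, and all 8 passed the low-count filter that left 13295 genes for testing. They were chosen by the names of their families, with the genotype differences in these libraries already known, so the values of those differences are given as a description and without p-values. Treg keep other T cells in check, and the transcription factor Foxp3 defines them. Cells from 21-day-old male C57BL/6 mice were sorted as DAPI- TCRβ+ CD4+ GFP+ CD25+, with 1000 cells in each library. The 4 groups had 3 libraries each. Spleen ∆Foxp3 Treg carried, per their genotype labels, ∆Foxp3.EGFP.iCre X R26.YFP, and spleen WT Treg carried Foxp3.ires.GFP. Lung ∆Foxp3 Treg carried ∆Foxp3.ires.GFP, and lung WT Treg carried Foxp3.ires.GFP. The labels' protocol names ∆Foxp3.ires.GFP mice for both tissues, so the sources differ on the spleen allele. Every group thus carries a reporter at Foxp3, and the sort itself relies on it. Nothing in the labels ties replicate libraries to different mice, and p-values therefore reflect variation among libraries that could be technical alone.

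Type I interferon binds the receptor made of Ifnar1 and Ifnar2, and the kinases Jak1 and Tyk2 then activate STAT proteins such as Stat2, which join Irf9 and bind interferon-stimulated response elements in promoters. Ifitm proteins (interferon-induced transmembrane proteins) are small membrane proteins that hinder the entry of enveloped viruses into cells. Ly6 proteins are small surface proteins held in the membrane by a lipid anchor, and several mark activated or immature blood cells in mice. In T cells Ly6a, also called Sca-1, and Ly6C, the product of Ly6c1 and Ly6c2, are used as surface markers of activation or memory state. The comparison asks whether these genes follow the other type I interferon genes across the 4 groups.

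The 8 genes moved in opposite directions. In both tissues Ifitm1, Ifitm2, Ifitm10 and Ly6a were called higher in ∆Foxp3 Treg, Ly6c1 and Ly6e were called lower, and Ifitm3 and Ly6c2 passed in neither direction. Calls, which for these 8 genes serve as a description only, are those of edgeR's quasi-likelihood test at 0.05 after Benjamini-Hochberg adjustment over every gene tested. Of all genes tested, 14.1% were called higher and 12.5% lower in spleen, and 9.74% were called higher and 10.5% lower in lung. Over the same contrasts the type I interferon genes went in 1 direction, with 22 of 34 tested genes lower in spleen, 25 of 34 lower in lung and none higher in either.

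Foxp3 itself was far lower in the libraries labelled ∆Foxp3. It had 159, 114 and 227 CPM (counts relative to library size, scaled by TMM factors) in spleen ∆Foxp3 Treg, against 1026, 991 and 1096 CPM in spleen WT Treg. It had 469, 385 and 189 CPM in lung ∆Foxp3 Treg, against 1418, 1361 and 1328 CPM in lung WT Treg. The groups were apart in both tissues. Library totals ran from 3958892 to 9025150 counts, so 3 counts correspond to 0.334 to 0.777 CPM. Spleen WT 1 stood apart in its share of counts on Gm10800 and Gm10801 (0.112%, against 0.743 to 2.94% in the other 11 libraries), and lung WT 1 and lung ∆Foxp3 3 had the most genes detected (22981 and 23649, against 19618 to 22015 in the other 10). Lung ∆Foxp3 3, which had the highest Ifitm1, Ifitm2, Ifitm3 and Ly6a of its group, also had the highest mitochondrial share (2.44%, against 1.40 to 1.63% in the other 11), and the part of this in its levels was not tested. Of 10 endothelial markers, Pecam1 gave nearly all of the summed level, which was 93.0 to 150 CPM in spleen ∆Foxp3, 270 to 331 CPM in spleen WT, 117 to 122 CPM in lung ∆Foxp3 and 285 to 332 CPM in lung WT libraries. No other marker of that list exceeded 7.38 CPM in any library (Egfl7 in lung WT 3). Cldn5 and Emcn were at 0 in every spleen ∆Foxp3 library, and Cldn5 and Plvap in every spleen WT library. The 10 monocyte, macrophage and dendritic cell markers summed to 380 to 556 CPM in spleen ∆Foxp3 and 424 to 592 CPM in spleen WT libraries, and to 369 to 471 CPM in lung ∆Foxp3 and 651 to 853 CPM in lung WT libraries. Ctss, a member with 201 to 253 CPM in spleen ∆Foxp3 and 334 to 423 CPM in spleen WT libraries, was called lower in ∆Foxp3 Treg of both tissues, whereas other members had higher spleen ∆Foxp3 means. Csf1r had 110, 13.2 and 49.9 CPM in spleen ∆Foxp3 libraries, against 28.6, 27.2 and 9.10 CPM in spleen WT libraries. Cx3cr1 had 19.5, 7.91 and 7.89 CPM in spleen ∆Foxp3 libraries, against 0, 4.65 and 1.85 CPM in spleen WT libraries, and neither of these 2 genes, chosen after their values were seen, was called. In lung, Ctss and Ccr2 made up most of the sums. Ctss had 143 to 232 CPM in lung ∆Foxp3 and 243 to 357 CPM in lung WT libraries. Ccr2 had 202 to 230 CPM in lung ∆Foxp3 and 348 to 412 CPM in lung WT libraries. Of the 7 markers of this list that were tested, 6 had a negative fold change in lung. Cx3cr1 went the other way and was not called, with 16.4, 7.33 and 6.25 CPM in lung ∆Foxp3 libraries, against 2.58, 2.33 and 1.05 CPM in lung WT libraries. Fcgr1 was at 0 in every lung WT library, and Cd14 in every lung ∆Foxp3 library. The 8 fibroblast and epithelial markers summed to 8.31 to 11.7 CPM in spleen ∆Foxp3 and 26.5 to 38.7 CPM in spleen WT libraries, and to 13.1 to 15.5 CPM in lung ∆Foxp3 and 38.9 to 208 CPM in lung WT libraries. Of the 4 of them tested, Epcam was called lower in spleen, and Epcam, Sftpc and Scgb1a1 in lung; the highest lung WT values were 174 CPM for Scgb1a1, in lung WT 3, and 64.0 CPM for Sftpc, in lung WT 1. Dcn was at 0 in all spleen WT and all ∆Foxp3 libraries, and Col3a1, Sftpc and Scgb1a1 in all spleen ∆Foxp3 libraries. The part of any such cells in the levels of the 8 genes was not tested. In such bulk libraries a smaller share of cells and less RNA per cell cannot be told apart. The endothelial sums are in effect the level of Pecam1.

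The genes lie on 2 chromosomes, with Ifitm10 well apart from the other Ifitm genes. By the GENCODE M21 annotation of mm10, the Ifitm genes are on chromosome 7, with Ifitm2 at 140954837 to 140955987 (minus strand), Ifitm1 at 140967221 to 140969825 (plus strand), Ifitm3 at 141009586 to 141010770 (minus strand) and Ifitm10 at 142325837 to 142373753 (minus strand). The Ly6 genes are on chromosome 15, with Ly6e at 74955051 to 74959905 (plus strand), Ly6a at 74994877 to 74998031, Ly6c1 at 75044018 to 75048830 and Ly6c2 at 75108158 to 75111970 (all 3 minus strand). Ly6 genes resemble each other closely enough to share reads. Of the distinct 38-base stretches in Ly6c1 transcripts, the length of a read here, 27.6% also occur in Ly6c2 and 14.1% in Ly6a. For Ly6a, 19.5% also occur in Ly6c1, and for Ly6c2, 17.9%. The split of counts among these 3 genes is uncertain to that extent. Among the Ifitm genes the largest such share was 5.18%, of Ifitm2 with Ifitm3, and Ly6e and Ifitm10 shared none with the family members compared with them.

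Promoter windows from RefSeq (GRCm38.p6), 250 bases before to 50 bases after a gene's start, were matched by symbol for Ifitm1, Ifitm2, Ifitm3, Ifitm10, Ly6c1 and Ly6c2. The letters of an interferon-stimulated response element were searched as GAAA, then 2 bases of any kind, then GAAA, on both strands. Ifitm2 and Ifitm3 held them, and Ifitm1, Ifitm10, Ly6c1 and Ly6c2 did not. Of all 32851 windows of this length, 3.44% held them. Counted by gene, 3.99% of 27025 genes held them in any window. Of the 24 tested type I interferon genes with a window 14 did (58.3%). The gamma-activated element was searched as TTC, then 3 bases of any kind, then GAA, which reads alike on both strands. It was in Ifitm3 alone among the 6 genes, in 8.30% of all windows and in 9.55% of all genes. The following stretches are shown because the genes they belong to went different ways, with the response element in capitals, 5′ to 3′ along the gene. For Ifitm2 it is the 100 bases before the start (chr7:140955962-140956061, minus strand). For Ifitm3 it is the first 30 bases from the start (chr7:141010715-141010744, minus strand), where the gamma-activated element lies at bases 14 to 22 and overlaps the second response element. For Ifitm1 (chr7:140967976-140968075, plus strand), Ly6c1 (chr15:75048838-75048937, minus strand) and Ly6c2 (chr15:75111972-75112071, minus strand) it is again the 100 bases before the start.
Ifitm2: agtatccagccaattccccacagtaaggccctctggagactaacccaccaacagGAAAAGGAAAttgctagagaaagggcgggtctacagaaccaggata
Ifitm3: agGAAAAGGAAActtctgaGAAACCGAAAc
Ifitm1: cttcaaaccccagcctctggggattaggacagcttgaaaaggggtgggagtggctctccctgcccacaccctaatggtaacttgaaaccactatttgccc
Ly6c1: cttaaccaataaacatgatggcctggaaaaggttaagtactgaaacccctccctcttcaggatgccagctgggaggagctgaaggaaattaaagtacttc
Ly6c2: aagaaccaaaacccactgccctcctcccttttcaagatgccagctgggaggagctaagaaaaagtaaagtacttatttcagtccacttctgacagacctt
In Ifitm2 the response element lies 46 to 37 bases before the start, and in Ifitm3 a pair of them lies at bases 3 to 12 and 20 to 29. Over the 250 bases before their starts, the aligned Ly6c1 and Ly6c2 promoters were identical at 57.7% of positions. These matches describe letters in a window and are not evidence of binding.

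Ifitm2, an endosomal antiviral protein, had the plainest difference of the family. It had 45.9, 90.4 and 81.4 CPM in spleen ∆Foxp3 Treg, against 1.89, 1.97 and 1.54 CPM in spleen WT Treg. It had 35.8, 132 and 164 CPM in lung ∆Foxp3 Treg, against 4.95, 3.11 and 5.27 CPM in lung WT Treg. Every ∆Foxp3 library was above every WT library, also across tissues. The log2 fold change, ∆Foxp3 over WT, was 5.31 ± 0.54 (SE of the fit) in spleen and 4.61 ± 0.51 in lung, and it was called in both under all alternatives.

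Ifitm1, which sits mainly at the cell surface, was close to absent from WT libraries. It had 2.62, 13.9 and 12.5 CPM in spleen ∆Foxp3 Treg, against 0 in all 3 spleen WT libraries. It had 0.923, 29.3 and 30.6 CPM in lung ∆Foxp3 Treg, against 0, 0 and 0.176 CPM in lung WT Treg. The first replicate was the lowest of its group in each tissue, and in lung it lay near the floor. Against a floor of 3 counts over the spleen WT group, Ifitm1 was at least 70.1-fold higher in spleen ∆Foxp3 Treg (157 counts in all, against 0). In lung the pooled ratio was 296 (289 counts against 1), with an exact 95% Clopper-Pearson interval from 52.7 to 11731 that covers counting error only. Its fitted log2 fold change in lung, 7.78, depends on the prior count and was 9.81 without lung WT 3, 8.39 without lung ∆Foxp3 1, and 6.93 with the call lost when the 3 libraries named above as standing apart were left out together.

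Ifitm10, a more distant member whose function is little known, was low throughout. It had 3.93, 2.40 and 9.04 CPM in spleen ∆Foxp3 Treg, against 0.111, 0 and 0.617 CPM in spleen WT Treg. It had 3.23, 5.75 and 4.47 CPM in lung ∆Foxp3 Treg, against 0.861, 0.259 and 0.352 CPM in lung WT Treg. The groups did not overlap in either tissue, although most WT values lie near the level of a few counts. The log2 fold change was 4.30 ± 0.92 in spleen and 3.13 ± 0.88 in lung. The spleen value was 5.86 without spleen WT 3 and 3.60 without spleen ∆Foxp3 3, called in both. The lung value was 3.79 without lung WT 1. In lung the call was lost without lung WT 2 (2.90), lung WT 3 (2.95), lung ∆Foxp3 2 (2.95) or lung ∆Foxp3 3 (3.16), and with the 3 libraries named above left out together (3.78).

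Ifitm3, the member best known for blocking influenza virus, did not pass in either tissue. It had 31.7, 55.4 and 51.1 CPM in spleen ∆Foxp3 Treg, against 16.1, 15.5 and 27.3 CPM in spleen WT Treg. It had 17.1, 67.4 and 120 CPM in lung ∆Foxp3 Treg, against 62.7, 13.7 and 27.6 CPM in lung WT Treg. The spleen groups were narrowly apart, while in lung the lowest ∆Foxp3 library lay within the WT range and the other two lay above it. The log2 fold change was 1.23 ± 0.62 in spleen, where it was called only when the fit held the spleen libraries alone, and 0.97 ± 0.61 in lung. The lung value was 1.75 without lung WT 1 and 0.32 without lung ∆Foxp3 3, called in neither. Ifitm3 nevertheless carried most of the Ifitm1, Ifitm2 and Ifitm3 counts in WT Treg and a minority of them in ∆Foxp3 Treg. Its share of the 3 genes' counts was 36.5% ± 2.6 in spleen ∆Foxp3 and 91.0% ± 3.2 in spleen WT libraries, and 33.1% ± 4.5 in lung ∆Foxp3 and 85.9% ± 5.9 in lung WT libraries (SD, n = 3 each). Their summed level was 128 ± 42.3 CPM in spleen ∆Foxp3 and 21.5 ± 6.4 CPM in spleen WT libraries, and 199 ± 133 CPM in lung ∆Foxp3 and 39.2 ± 25.9 CPM in lung WT libraries. In every ∆Foxp3 library Ifitm2 held the largest of the 3 levels, and in every WT library Ifitm3 did.

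**Figure D1:**
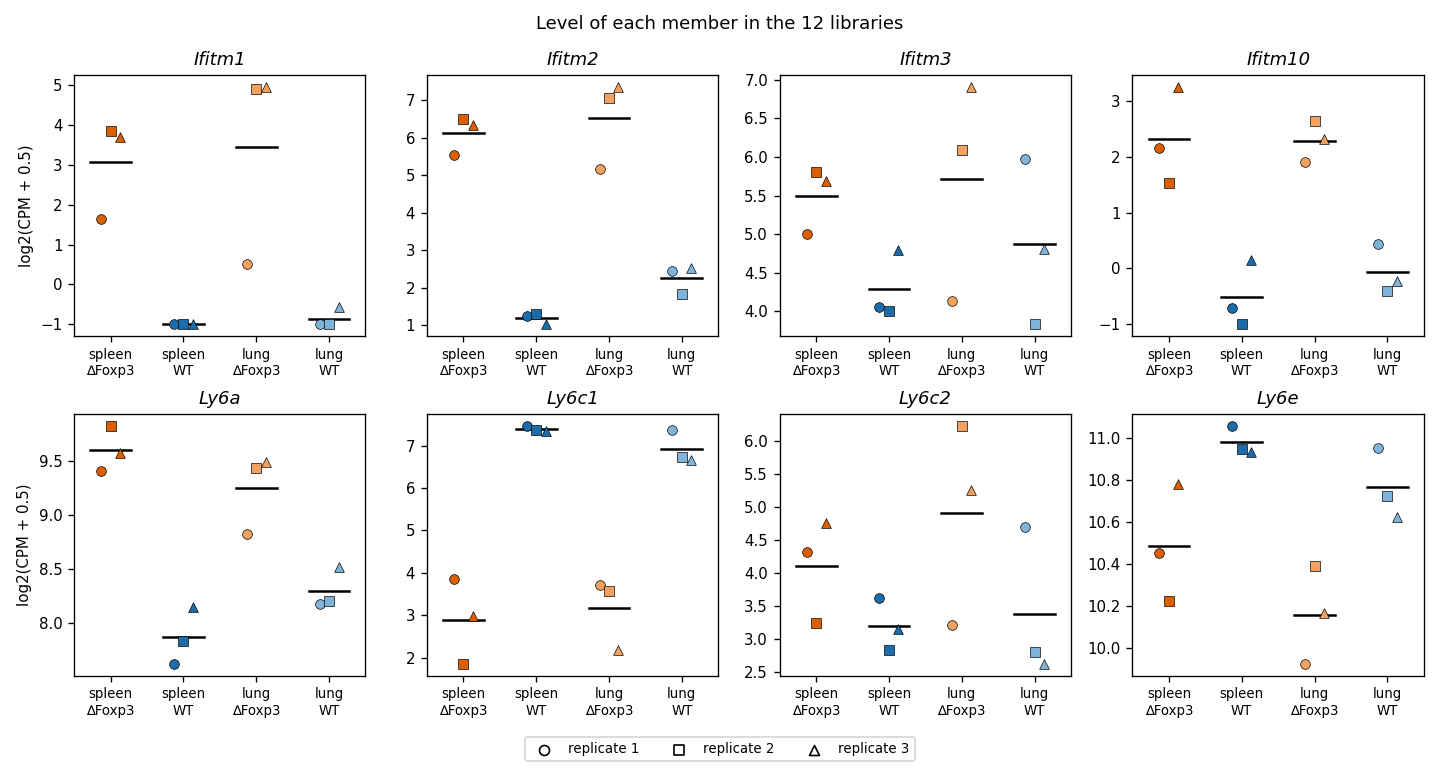
Level of each of the 8 genes in the 12 libraries, on the vertical axis as log2(CPM + 0.5), by group on the horizontal axis; each point is a library, its shape gives the replicate number and the bar is the mean of 3. Ifitm1, Ifitm2, Ifitm10 and Ly6a lie higher in both ∆Foxp3 groups, Ly6c1 and Ly6e lie lower, and the lung groups of Ifitm3 and Ly6c2 overlap.

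Ly6a, the stem cell antigen Sca-1, was the most abundant of the genes that rose, also per length. It had 678, 901 and 759 CPM in spleen ∆Foxp3 Treg, against 196, 228 and 283 CPM in spleen WT Treg. It had 451, 690 and 719 CPM in lung ∆Foxp3 Treg, against 289, 294 and 367 CPM in lung WT Treg. No ∆Foxp3 library reached down to a WT library of either tissue. The log2 fold change was 1.73 ± 0.20 in spleen and 0.97 ± 0.19 in lung, called in both under all alternatives.

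Ly6c1 went the other way and further. It had 14.0, 3.12 and 7.46 CPM in spleen ∆Foxp3 Treg, against 175, 165 and 162 CPM in spleen WT Treg. It had 12.7, 11.5 and 4.02 CPM in lung ∆Foxp3 Treg, against 165, 106 and 101 CPM in lung WT Treg. Its log2 fold change was -4.35 ± 0.44 in spleen and -3.72 ± 0.43 in lung, called in both under all alternatives; the lung value was -3.07 without the 3 libraries standing apart. At these ∆Foxp3 levels the split of reads with Ly6c2 and Ly6a is the least certain.

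Ly6c2, its close copy, was not called lower with it. It had 19.5, 8.87 and 26.5 CPM in spleen ∆Foxp3 Treg, against 11.7, 6.61 and 8.33 CPM in spleen WT Treg. It had 8.77, 73.9 and 37.8 CPM in lung ∆Foxp3 Treg, against 25.2, 6.48 and 5.63 CPM in lung WT Treg. The groups overlapped in both tissues. The log2 fold change was 1.04 ± 0.71 in spleen and 1.69 ± 0.71 in lung, neither called, but the lung value was called without lung WT 1 (2.77) or without lung ∆Foxp3 1 (2.21), while it was 0.95 without lung ∆Foxp3 2 and not called. Of the counts on Ly6c1 and Ly6c2 together, Ly6c2 made up 70.1% ± 10.5 in spleen ∆Foxp3 and 5.00% ± 1.21 in spleen WT libraries, and 72.6% ± 27.5 in lung ∆Foxp3 and 8.09% ± 4.45 in lung WT libraries (SD, n = 3 each). The make-up of the Ly6C pair thus separated all ∆Foxp3 from all WT libraries, with a lowest Ly6c2 share of 40.9% among the 6 ∆Foxp3 libraries and a highest of 13.2% among the 6 WT libraries.

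Ly6e, which hinders the entry of coronaviruses, had the smallest changes of the 6 called genes. It had 1401, 1195 and 1760 CPM in spleen ∆Foxp3 Treg, against 2129, 1977 and 1954 CPM in spleen WT Treg. It had 970, 1340 and 1146 CPM in lung ∆Foxp3 Treg, against 1978, 1688 and 1575 CPM in lung WT Treg. The groups were apart within each tissue, but the spleen ∆Foxp3 and lung WT ranges overlapped. Its log2 fold change was -0.48 ± 0.16 in spleen and -0.60 ± 0.16 in lung. The spleen call was lost in 14 of 20 alternatives, among them leaving out any of 10 of the 12 libraries in turn (all but spleen ∆Foxp3 3 and lung ∆Foxp3 1), with log2 fold changes from -0.63 to -0.35 over all 20. In lung it was lost without lung WT 1 (-0.46), lung WT 2 (-0.59), lung ∆Foxp3 1 (-0.45) or lung ∆Foxp3 3 (-0.56), and without the 3 libraries standing apart (-0.47).

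Per kilobase of annotated exon, which allows levels to be compared between genes, Ly6a and Ly6e led in every group. Ly6a averaged 647 CPM per kb and Ly6e 384 CPM per kb in spleen ∆Foxp3 Treg, against 196 and 534 CPM per kb in spleen WT Treg. In lung Ly6a averaged 514 and Ly6e 304 CPM per kb in ∆Foxp3 Treg, against 263 and 462 CPM per kb in WT Treg. The place behind them was held by Ifitm2 in ∆Foxp3 Treg, at 111 CPM per kb in spleen and 169 CPM per kb in lung, and by Ly6c1 in WT Treg, at 99.8 CPM per kb in spleen and 74.0 CPM per kb in lung. Ifitm10 averaged 1.07 CPM per kb or less in every group. Group ranges did not overlap in 7 of the 8 genes in spleen and in 6 of 8 in lung, against 38.2% and 45.3% of all genes tested, and nothing is read from these counts because these contrasts were known when the genes were chosen.

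The type I interferon genes give the measure that the members were to be set against. The list held 36 genes, of which 34 were tested, and it shares no gene with the 8. That these genes were lower in ∆Foxp3 Treg was known when the list was drawn up, so it is no independent support here. Their median log2 fold change was -1.15 in spleen, over a range from -6.59 to 0.18, and -1.41 in lung, over a range from -5.89 to 0.23, while the medians of all tested genes were -0.02 and -0.01. Rsad2, which encodes the antiviral enzyme viperin, had a log2 fold change of -4.24 ± 0.56 in spleen (edgeR adjusted p = 9.5e-05) and of -5.89 ± 0.62 in lung (edgeR adjusted p = 3.4e-05). Usp18, which dampens signalling from the receptor, fell by 3.16 ± 0.43 in spleen (edgeR adjusted p = 0.00016) and by 3.40 ± 0.45 in lung (edgeR adjusted p = 0.00026). Rtp4, another interferon-induced gene, had 17.9, 29.0 and 23.1 CPM in spleen ∆Foxp3 Treg, against 127, 106 and 121 CPM in spleen WT Treg. The fold change of Rtp4 was -2.34 ± 0.27 in spleen and -2.23 ± 0.27 in lung, and that of Trim30a, which encodes an interferon-induced TRIM protein, was -1.16 ± 0.14 and -1.34 ± 0.14. Irf9, among the most abundant genes of the list, was called lower in both tissues, as was Trim30a. The count of 25 in lung was 15 without lung WT 1 and 15 without lung ∆Foxp3 3.

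Set against those 34 genes, 6 of the 8 had fitted values outside their range. Among the 6 are Ifitm3 and Ly6c2, which were not called in either tissue. How many of all tested genes lie above the list's highest value was not counted. These contrasts were known when the genes were chosen, so nothing about the members is read from this count. Ifitm1, Ifitm2, Ifitm3, Ifitm10, Ly6a and Ly6c2 had fitted log2 fold changes above all 34 in spleen and above all 34 in lung, although the lung value of Ifitm3 without lung ∆Foxp3 3 (0.32) is close to the highest of the list (0.23). Ly6c1 had a lower fold change than 32 of the 34 in spleen and 28 of the 34 in lung. Ly6e had a higher one than 28 of the 34 in spleen and 30 of the 34 in lung, within the list's range. The median of the 8 was 1.48 in spleen and 1.33 in lung; Ifitm1, the highest of them, does not set it.

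**Figure D2:**
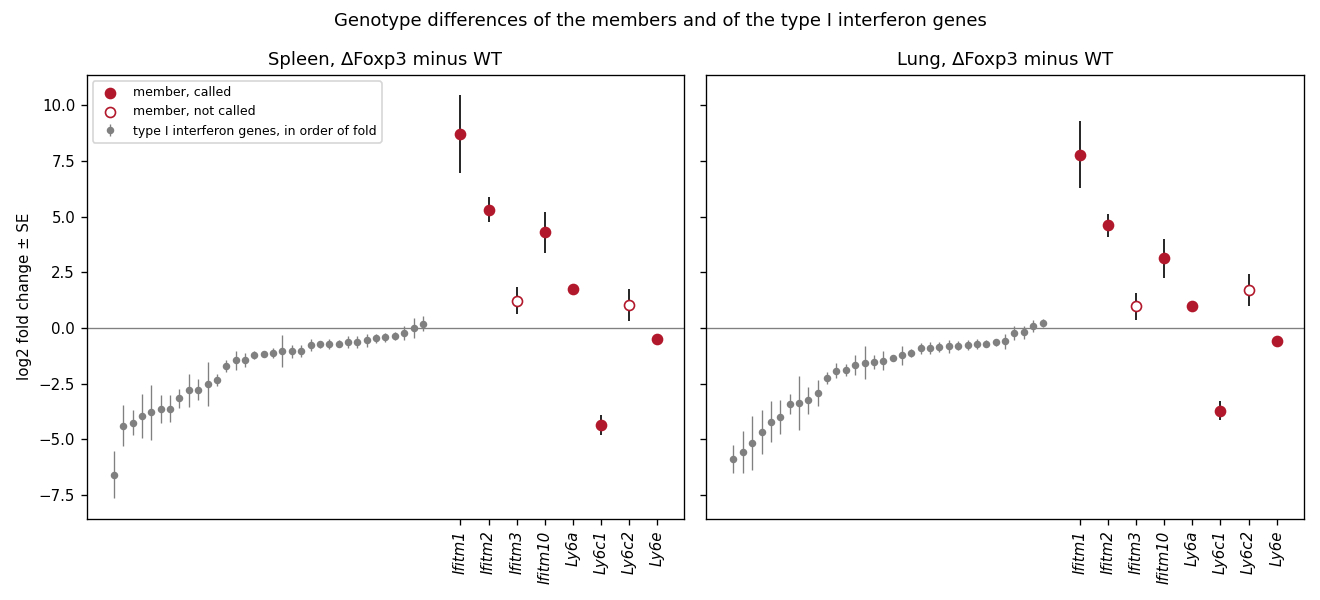
Log2 fold change, ∆Foxp3 minus WT, with its SE on the vertical axis, in spleen (left) and lung (right). Grey points are the 34 tested type I interferon genes in order of fold, red points are the 8 surface protein genes (filled where called), and Ifitm1 has very wide error bars because its WT counts are near 0; Ly6c1 and Ly6e lie among the grey values and the other 6 lie above them.

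Genes of the receptor and its signalling fell in part. Of 10 receptor and signalling genes, 5 were called lower and 1 higher in spleen, and 6 lower and 1 higher in lung. The type I receptor chain gene Ifnar1 had a log2 fold change of -1.07 ± 0.13 in spleen (edgeR adjusted p = 4.9e-05) and of -1.07 ± 0.13 in lung (edgeR adjusted p = 9.4e-05). Its partner Ifnar2 fell by 1.09 ± 0.25 in spleen and by 0.79 ± 0.25 in lung, Ifngr2, a chain of the interferon gamma receptor, by 1.28 ± 0.27 and 1.06 ± 0.28, and Stat2 by 0.70 ± 0.16 in each. Irf9 fell by 1.21 ± 0.18 in spleen and by 1.14 ± 0.18 in lung. The kinase gene Jak1 fell in lung (-0.64 ± 0.15) and was not called in spleen (-0.13 ± 0.15). Jak2, the kinase of the interferon gamma receptor, rose by 0.69 ± 0.21 in spleen and by 0.82 ± 0.21 in lung. In lung the calls of Ifnar2, Ifngr2, Jak1 and Stat2 were lost without lung WT 1 (-0.75, -0.84, -0.54 and -0.57). Those of Ifnar2 and Ifngr2 were also lost without lung WT 2 (-0.76 and -1.03), lung ∆Foxp3 2 (-0.86 and -0.86) or lung ∆Foxp3 3 (-0.50 and -0.81), that of Ifnar2 without lung WT 3 (-0.75) or spleen WT 2 (-0.79), that of Jak1 without lung ∆Foxp3 2 (-0.57) and that of Stat2 without lung ∆Foxp3 3 (-0.61). The Jak2 call was lost in lung without lung WT 3 (0.69) and in spleen without spleen WT 1 (0.61) or spleen ∆Foxp3 3 (0.63).

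Interferon gamma signals through its own receptor, and genes it is known to induce gave other counts than the type I list. Of 18 tested genes, 3 were called lower and 0 higher in spleen (5 had an unadjusted p under 0.05 in edgeR), and 0 lower and 6 higher in lung (9 had an unadjusted p under 0.05). Among all genes tested, 12.5% were called lower in spleen and 9.74% higher in lung. Irgm2 and Gbp7, both GTPase genes, fell by 1.29 ± 0.20 and 0.67 ± 0.14 in spleen. In lung Gbp7 was not called (-0.40 ± 0.14) but was called lower with library totals (-0.41), the filter at 10 CPM (-0.43), only the groups compared (-0.40), the replicate block (-0.40) or without spleen ∆Foxp3 2 (-0.39), and Irgm2 (-0.47 ± 0.20) with only the groups compared (-0.47). Iigp1, a GTPase gene, and Psmb8, a subunit gene of the immunoproteasome, rose by 1.29 ± 0.29 and 0.53 ± 0.15 in lung. The Psmb8 call was lost without lung WT 1 (0.57), lung WT 2 (0.52) or lung ∆Foxp3 2 (0.49). For the interaction of genotype and tissue, 0 of the 18 genes were called, 8 had an unadjusted p under 0.05 in edgeR, and 2 had a negative value. Whether these lists differ in response between tissues was not tested as a list.

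Of 16 genes of naive and resting T cells, 12 were called lower and 0 higher in each tissue (in edgeR 14 had an unadjusted p under 0.05 in spleen and 13 in lung). Id3, an inhibitor of E protein transcription factors, fell by 2.76 ± 0.17 in spleen and by 1.72 ± 0.17 in lung, and the transcription factor gene Klf3 fell by 2.68 ± 0.25 and 2.99 ± 0.26. This list moved with Ly6c1, and its part in the level of Ly6c1 was not tested.

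Other genes of the 2 families were mostly too low to test. Of 35 listed, 7 passed the filter, namely Cd59a, Ly6g5b, Ly6i, Ly6k, Ly6m, Lynx1 and Plaur. In spleen none of the 7 was called by edgeR or by DESeq2, and 1, Ly6g5b, had an unadjusted p under 0.05 in edgeR (2.54 ± 0.93; called with the replicate block at 2.74, with no low-count filter at 2.55, without spleen WT 2 at 3.53, without lung WT 1 at 2.58 and without the 3 libraries standing apart at 1.93). Ly6g5b had 31.1, 21.0 and 30.8 CPM in lung ∆Foxp3 Treg, against 0.215, 3.37 and 5.45 CPM in lung WT Treg, and rose there by 3.17 ± 0.93 on the log2 scale (edgeR adjusted p = 0.030). Ly6i had 0.231, 0 and 0 CPM in lung ∆Foxp3 Treg, against 2.15, 4.15 and 1.76 CPM in lung WT Treg, and fell there (-4.80 ± 1.28, edgeR adjusted p = 0.016) at levels of a few counts. The Ly6g5b call was lost without lung WT 1 (2.66), lung WT 2 (3.26) or any lung ∆Foxp3 library (3.11 to 3.37), and the Ly6i call without lung WT 2 (-4.34), lung ∆Foxp3 2 (-4.26) or lung ∆Foxp3 3 (-4.32), or without the 3 libraries standing apart (-4.45). The other 5 had fold changes from -1.59 to -0.08 in spleen and from -3.49 to -1.04 in lung, none called, but Ly6k was called lower in lung with only the groups compared (-2.54).

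Averaged over genotypes, none of the 8 genes was called between lung and spleen in edgeR, 2 had an unadjusted p under 0.05, and DESeq2 called 1, Ifitm2, against 4.59% of all genes called in edgeR. Ifitm2 had a log2 difference, lung minus spleen, of 0.96 ± 0.36 (edgeR adjusted p = 0.150), and it was called without lung ∆Foxp3 1 (1.20) and with no low-count filter (0.94). Ly6e had -0.27 ± 0.11 (edgeR adjusted p = 0.185). The other 6 had adjusted p-values from 0.408 to 0.889 in edgeR. The lungs were digested with enzymes and enriched for CD4 T cells while the spleens were dissociated mechanically, so tissue and preparation cannot be told apart.

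Within WT Treg, Ifitm2 and Ly6a were higher in every lung library than in every spleen library. The share of all tested genes whose lung and spleen groups do not overlap was not counted in either genotype, so nothing is read from overlap here. Ifitm2 had 3.11 to 5.27 CPM in lung WT Treg, against 1.54 to 1.97 CPM in spleen WT Treg (log2 difference 1.31 ± 0.60, edgeR adjusted p = 0.249). Ly6a had 289 to 367 CPM in lung WT Treg, against 196 to 283 CPM in spleen WT Treg (0.43 ± 0.19, edgeR adjusted p = 0.242). Neither passed, although Ifitm2 was called with no low-count filter (1.29), and none of the 8 was called by edgeR or DESeq2 in WT Treg, where 4.13% of all genes were called by edgeR. In ∆Foxp3 Treg, where the genotype labels also differ between tissues, all 8 genes overlapped between lung and spleen, none was called and none had an unadjusted p under 0.05, against 0.722% of all genes called. The order of the 4 groups was the same for Ifitm1, Ifitm2, Ifitm3 and Ly6c2, with lung ∆Foxp3 first, then spleen ∆Foxp3, lung WT and spleen WT. For Ifitm3 and Ly6c2 each neighbouring pair in that order overlapped. For Ifitm1 and Ifitm2 lung ∆Foxp3 and spleen ∆Foxp3 overlapped, and the step to WT was clear.

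For none of the 8 did the test of a different genotype effect in lung and spleen pass. Ly6a came closest, with a log2 fold change smaller in lung than in spleen by 0.76 ± 0.27, the interaction being -0.76 (edgeR adjusted p = 0.323). It was the 1 gene of the 8 with an unadjusted p under 0.05, and neither edgeR nor DESeq2 called any of the 8. Of all genes tested, 0.925% were called for this interaction. The other 7 had interactions from -1.17 to 0.65 with adjusted p-values from 0.850 to 0.977 in edgeR.

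Variation between libraries of 1 group offers a view of the question that does not use the genotype difference. A type I interferon score, the mean of log2(CPM + 2) over the 34 tested genes, was 4.51 ± 0.14 in spleen ∆Foxp3 and 5.95 ± 0.13 in spleen WT libraries, and 4.40 ± 0.21 in lung ∆Foxp3 and 5.92 ± 0.52 in lung WT libraries (SD, n = 3 each). Each library's score and each gene's level on the same scale were taken as deviations from their own group mean and correlated over the 12 libraries. An exact permutation test shuffled libraries within groups (1296 relabelings, two-sided), and its p was adjusted over the 8 relations. Pearson's r was highest for Ly6c2 at 0.39 (exact permutation p = 0.354), Ly6c1 at 0.37 (p = 0.218) and Ifitm3 at 0.33 (p = 0.452). Spearman's rho was 0.24 (exact permutation p = 0.578), 0.43 (p = 0.241) and 0.25 (p = 0.544) for the same 3 genes. Ly6e had an r of 0.23, Ifitm10 0.09, Ifitm2 -0.05, Ifitm1 -0.07 and Ly6a -0.12, with exact permutation p-values from 0.522 to 0.853, and their rho ran from -0.17 to 0.05 with exact permutation p-values from 0.658 to 1. None passed, with an adjusted p of 0.853 for r and 1 for rho in all 8, and none had an unadjusted p under 0.05. With 12 libraries a moderate relation could be missed.

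Lung WT 1 had the largest deviation of the score, 0.60. It had the highest score of all libraries, 6.51, against 5.70 and 5.54 in the other two lung WT libraries, and also the highest Ifitm3, Ly6c1, Ly6c2 and Ly6e of the lung WT group. Without the 2 libraries farthest from the median score deviation, lung WT 1 and lung WT 3, r was 0.04 for Ifitm3, 0.20 for Ly6c1, -0.06 for Ly6c2 and -0.23 for Ly6e. Those deviations were still taken from the means of the full groups, so these values do not show which libraries the positive r rests on. Over the 20 alternatives r ran from -0.25 to 0.67 for Ifitm3 and from -0.51 to 0.68 for Ly6c1. It ran from -0.16 to 0.63 for Ly6c2 and from -0.28 to 0.45 for Ly6e. Lung WT 1 also had the highest monocyte, macrophage and dendritic marker sum (853 CPM). Ctss (357 CPM) and Ccr2 (348 CPM) made up most of it, although Ccr2 and Itgam were the lowest of the lung WT group there. Lyz2 had 126 CPM in lung WT 1, against 1.55 and 1.76 CPM in the other lung WT libraries. The sum of 8 neutrophil markers was also highest in lung WT 1 (34.5 CPM, against 0.179 to 15.3 CPM in the other 11 libraries). The part of such cells in the levels of lung WT 1 was not tested.

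A different pair of libraries stood out for the genes that rose. Spleen ∆Foxp3 1 and lung ∆Foxp3 1 had the lowest Ifitm1, Ifitm2, Ifitm3 and Ly6a of their groups and the highest Ly6c1. Their interferon scores lay close to their group means, with deviations of -0.03 and 0.06, while Ifitm1 deviated by -1.14 and -2.30 and Ifitm2 by -0.58 and -1.32 on the log2 scale. Their Foxp3 was 159 CPM, between the other two spleen ∆Foxp3 libraries, and 469 CPM, the highest of the lung ∆Foxp3 libraries. This pattern was noticed in the data and was not tested.

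**Figure D3:**
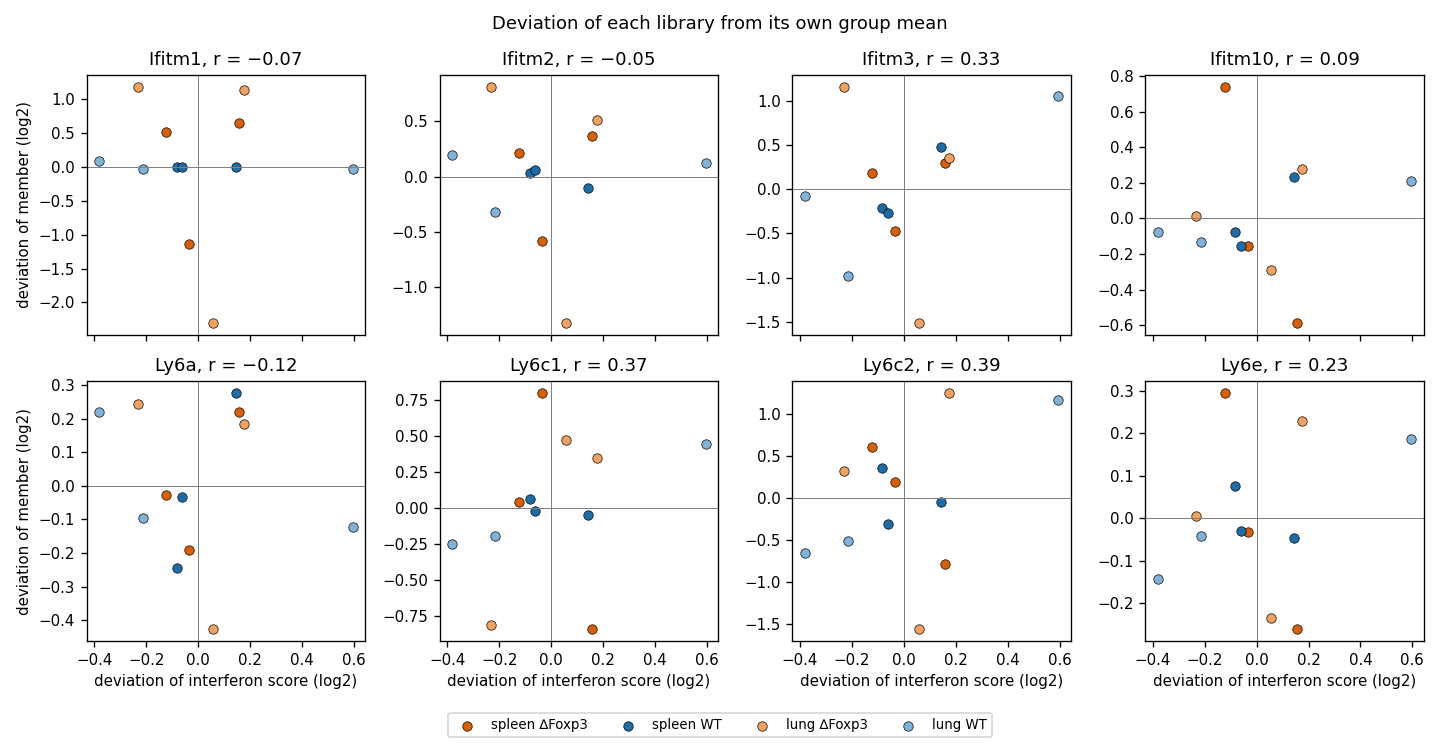
Deviation of each library from its own group mean, for the type I interferon score (horizontal axis, log2) and for each gene (vertical axis, log2), with Pearson's r over 12 libraries above each panel. Lung WT 1 lies alone at the right with a score deviation of 0.60, and lung ∆Foxp3 1 lies lowest for Ifitm1, Ifitm2, Ifitm3, Ly6a and Ly6c2 near a score deviation of 0.

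The genes most like each member over the 12 libraries were found by the root-mean-square (RMS) difference of centred log2 levels among 8463 other genes averaging at least 10 CPM. Because this measure holds the genotype difference, it is a description. The closest to Ifitm2 were Atp8b4 (0.58), Ier3 and Cysltr1, and to Ifitm1 Slco4a1 (0.71), Atp8b4 and Runx2. The closest to Ifitm3 were Ybx3 (0.56), Ctc1 and Chaf1b, and to Ifitm10 Rab11fip4 (0.26), B4galnt4 and Vsig10l. Ly6a was closest to Rpa2 (0.18), Pole3 and Rnaseh2b, and Ly6e to Gatd1 (0.14), Lrrc8d and Tpt1. Ly6c2 was closest to Serpinb9 (0.63) and Serpinb6b, with Ifitm3 next at 0.66. Ly6c1 was closest to H2-Ob (0.35), Sesn1 and Il6ra. Of the 100 genes nearest to Ly6c1, 8 were on the type I interferon list, which made up 0.366% of the candidates (31 of 8463), and of the 100 nearest to each of the other 7 members none was. No list gene was called higher in either tissue, so the measure could hardly place any near the members that rose. A count of 0 in 100 also lies near the share of 0.366%, so nothing is read from these counts.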

How the data were processed

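The table that the authors deposited holds unnormalized counts of 55011 gene symbols in 12 libraries. The submitters' processing notes name mm10, featureCounts, Subread 2.0.0 and STAR 2.7.3a; which annotation and strand setting they used is not given in the sources at hand. Per the labels' protocols, poly(A) RNA of 1000 sorted cells was copied by Smart-seq, amplified for 18 cycles and read in pairs of 38 bases, with no molecular identifiers; floors and intervals therefore reflect counting error alone. The main test was edgeR's quasi-likelihood F test (version 4.0.16, under R 4.3.3) after TMM scaling and filterByExpr, robust, in 1 fit over all libraries with group as the only term. The fit and the correlation were checked on simulated data. The correlation was checked only with no relation or a very strong one, so its power for moderate relations was not assessed. P-values of the fit are two-sided and adjusted over 13295 genes by Benjamini-Hochberg. Alternatives were RLE factors, library totals, DESeq2 1.42.0, no filter, a filter at 10 CPM in 3 libraries, only the groups compared, the replicate number as a block, other pseudocounts (0.5 and 5 CPM) and scores for the correlation, and leaving out each library; leaving out the 3 libraries that stand apart was chosen after seeing the data.

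The members and all gene lists were chosen with earlier results of these data known. Named genes were the 8 members and Foxp3, up to 4 called type I interferon genes by adjusted p per genotype contrast and the 3 most abundant, called receptor genes, up to 2 called interferon gamma and naive genes, tested family genes, the 3 most alike genes per member and the most abundant gene of a marker list. Further markers were named after their values were seen. A few named genes' own values are not reported here. Of the symbols, 53009 (96.4%) matched GENCODE M21. Deviations of same-numbered libraries had correlations of -0.11 to 0.10. Differently numbered libraries were not set beside them, so this cannot show whether a shared number marks a shared mouse. Numbers were used to pair samples only in the replicate block. No 2 libraries of a group agreed within sampling noise.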

Additional observations from a re-analysis of the deposited data

How the results depend on the processing

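No called result changed direction under the alternatives run. Ifitm1, Ifitm2, Ifitm10, Ly6a and Ly6c1 in spleen and Ifitm2, Ly6a and Ly6c1 in lung were called under every alternative that gave a value; Ifitm10 gave none under the filter at 10 CPM and Ifitm1 none in lung with only the groups compared. The count of members lower in spleen, 2, was 1 under DESeq2, with only the groups compared, with the replicate number as a block and without the 3 libraries that stand apart, and 1 to 2 when leaving out each library; the gene lost was Ly6e, and the cause was not tested. In lung members lower were 1 to 2 when leaving out each library and 1 without the 3 libraries, and members higher, 4, were 2 without them (Ifitm1 and Ifitm10 lost). The type I interferon genes lower in lung, 25, were 15 to 27 when leaving out each library and 13 without the 3 libraries. For lung minus spleen averaged over genotypes, members called, 0, were 1 with no low-count filter, 1 under DESeq2 and 0 to 1 when leaving out each library, and interferon genes called, 0 (4 at an unadjusted p under 0.05 in edgeR, 0 by DESeq2), were 2 with no filter and 0 to 1 when leaving out each library. In WT Treg, members called, 0, were 1 with no filter, and interferon genes called, 0, were 1 with no filter, 0 to 1 when leaving out each library and 2 without the 3 libraries. The replicate block changed no other count of members by over 1.5 times. No within-group correlation passed under its 20 alternatives; with the replicate number also centred out, none passed either. Depth limits Ifitm1, Ifitm10 and Ly6i, whose low groups lie near 3 counts a library.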
